A study of Mus musculus with 9 samples.

Results

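The 10 genes described here carry the signals of interleukin 6 (IL-6) and interleukin 1 (IL-1) to the liver. They are the receptor genes Il6ra, Il6st, Osmr and Il1r1, the kinase gene Jak2 and the transcription factor gene Stat3. The others are the inhibitor genes Socs3, Il1rn and Nfkbia, and the nuclear regulator gene Nfkbiz. All 10 were taken by gene symbol from the annotation of the array, which assigned 31 of 45037 probe sets to them. Of these probe sets 27, with at least 1 for each gene, passed a filter on low signal. The 4 left out were 2 of Osmr, 1 of Jak2 and 1 of Il1r1. The study compared 3 groups of female MRL +/+ mice, an autoimmune-prone strain, all 11 weeks old when their livers were taken. The first received dichloroacetyl chloride (DCAC) at 0.2 mmol/kg in 100 µl of corn oil by intraperitoneal injection 2 times a week for 6 weeks. The second received dichloroacetic anhydride (DCAA) at the same molar dose, volume and schedule, and the control group received corn oil alone (the labels call it untreated). Each group had 3 mice, and 1 array was hybridised per mouse with liver RNA collected 24 h after the last injection.

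IL-6 binds its receptor IL-6R alpha (Il6ra), which engages the shared subunit gp130 (Il6st); the attached Janus kinases phosphorylate STAT3, and STAT3 switches on acute phase genes in hepatocytes together with Socs3, whose product shuts the receptor down. IL-1 acts through IL1R1 and the MyD88 and IRAK proteins to free NF-kB from its inhibitor IkB alpha (Nfkbia), a gene that NF-kB itself induces. Together these pathways drive the plasma proteins that the liver secretes in inflammation, serum amyloid A and orosomucoid among them. Arrays report RNA and not phosphorylation, so the activity of the kinases and of STAT3 was not measured.

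The library labelled control 2 is shown apart and did not enter the fits below unless stated. On it 10 of 11 kidney marker genes measured lay above all other arrays (Umod, uromodulin, read 20921 there and 8.90 to 143 elsewhere), and 9 of 11 hepatocyte marker genes lay below all of them, with Alb at 1678 against 43741 to 65450. On the other 8 arrays the summed signal of the hepatocyte markers was 347412 to 454635 with DCAC, 441075 to 483566 with DCAA, and 347940 and 365094 in controls 1 and 3. The submitters state that RNA integrity was checked before labelling. Signal from the 3' end of the pyruvate carboxylase transcript exceeded that from its 5' end. Broken RNA and incomplete copying of RNA can each give such an excess, and their parts were not tested. The 3'/5' ratio was 2.85, 3.99 and 12.8 with DCAC, 6.43, 8.38 and 10.9 with DCAA, and 3.93 and 3.32 in controls 1 and 3. High ratios thus went with DCAA and with DCAC 3, and in the comparison of DCAA with control the ratio and the treatment cannot be told apart. In whole liver RNA, fewer cells of a type and less RNA per cell cannot be told apart.

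Promoters of a pair of feedback genes and of 1 target gene are shown because they hold letters of the kinds that STAT3, NF-kB and C/EBP proteins are known to bind. Each runs from 250 bases before to 50 bases after a transcript start in RefSeq (GRCm38.p6), 5' to 3' on the gene's strand. The Socs3 promoter lies at chr11:117969317-117969616 on the minus strand, the Nfkbia promoter at chr12:55492598-55492897 on the minus strand and the Saa2 promoter at chr7:46751583-46751882 on the plus strand. Capitals mark a STAT match (TTCNNNGAA) in Socs3, an NF-kB match (GGG, any 3 bases, TTCC) in Nfkbia and a C/EBP match (TTGCNNAA) in Saa2, searched on both strands, each the only match in its window.
Socs3: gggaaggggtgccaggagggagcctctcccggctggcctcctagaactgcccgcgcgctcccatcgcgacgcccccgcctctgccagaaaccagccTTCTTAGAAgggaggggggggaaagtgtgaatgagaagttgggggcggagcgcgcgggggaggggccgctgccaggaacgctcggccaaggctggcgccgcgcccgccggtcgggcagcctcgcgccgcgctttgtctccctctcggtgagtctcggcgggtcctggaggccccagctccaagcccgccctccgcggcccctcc
Nfkbia: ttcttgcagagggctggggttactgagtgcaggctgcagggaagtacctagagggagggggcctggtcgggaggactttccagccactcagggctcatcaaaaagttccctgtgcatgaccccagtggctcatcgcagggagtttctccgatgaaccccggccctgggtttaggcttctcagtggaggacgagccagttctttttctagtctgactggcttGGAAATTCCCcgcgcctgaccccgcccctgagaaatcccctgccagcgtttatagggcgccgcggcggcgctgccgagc
Saa2: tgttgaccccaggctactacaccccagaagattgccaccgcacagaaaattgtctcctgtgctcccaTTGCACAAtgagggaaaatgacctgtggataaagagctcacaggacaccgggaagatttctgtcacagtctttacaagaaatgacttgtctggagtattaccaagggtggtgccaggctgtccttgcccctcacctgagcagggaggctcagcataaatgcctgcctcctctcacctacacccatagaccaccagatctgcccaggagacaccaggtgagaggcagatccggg
The match began 154 bases before the start in Socs3, 29 bases before it in Nfkbia and 183 bases before it in Saa2. Among 32851 mouse promoters of this length 8.30% held the STAT letters, 5.56% the NF-kB letters and 10.8% the C/EBP letters. RefSeq gave 12 promoter windows for 9 of the 10 genes. The STAT letters were in 1 of these windows (Socs3) and the C/EBP letters in 1 (Il1r1). The NF-kB letters were in 5 of them, those of Nfkbia, 1 of Il1r1 and 3 of Il1rn, 2 of which overlap and share the site. A match is a description of the letters in the window.

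With neither compound did any of the 10 genes pass the test, while acute phase genes downstream of the same pathways rose by up to 24.1-fold. With DCAC the members' median log2 difference from control was -0.02, each gene read by its brightest probe set, and they ran from -0.39 (Socs3) to 0.18 (Il1rn), against a median of -0.00 over all 12293 genes tested. With DCAA the median was 0.20, and the genes ran from -0.29 (Jak2) to 1.15 (Il1r1), against 0.00 over all genes. The test was limma's moderated test over 24531 probe sets, two-sided, with calls at a Benjamini-Hochberg adjusted p under 0.05. It called 0.0326% of all probe sets for DCAC and 0.0815% for DCAA, so 0 of 10 is near that background. At an unadjusted p under 0.05, 0 of the 10 were counted for DCAC, where 2.85% of all genes were higher and 2.6% lower. For DCAA 3 were higher and 0 lower, where 6.96% of all genes were higher and 6.2% lower. The members' adjusted p was 0.979 to 0.998 for DCAC and 0.221 to 0.981 for DCAA. The median 95% interval of a member, which is not adjusted for the number of probe sets, reached 1.47-fold either way. A call after adjustment asks for larger differences than that, so a moderate change of a member could go uncalled with 3 mice against 2. A difference of 2.22-fold, that of Il1r1 with DCAA, was not called.

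**Figure D1:**
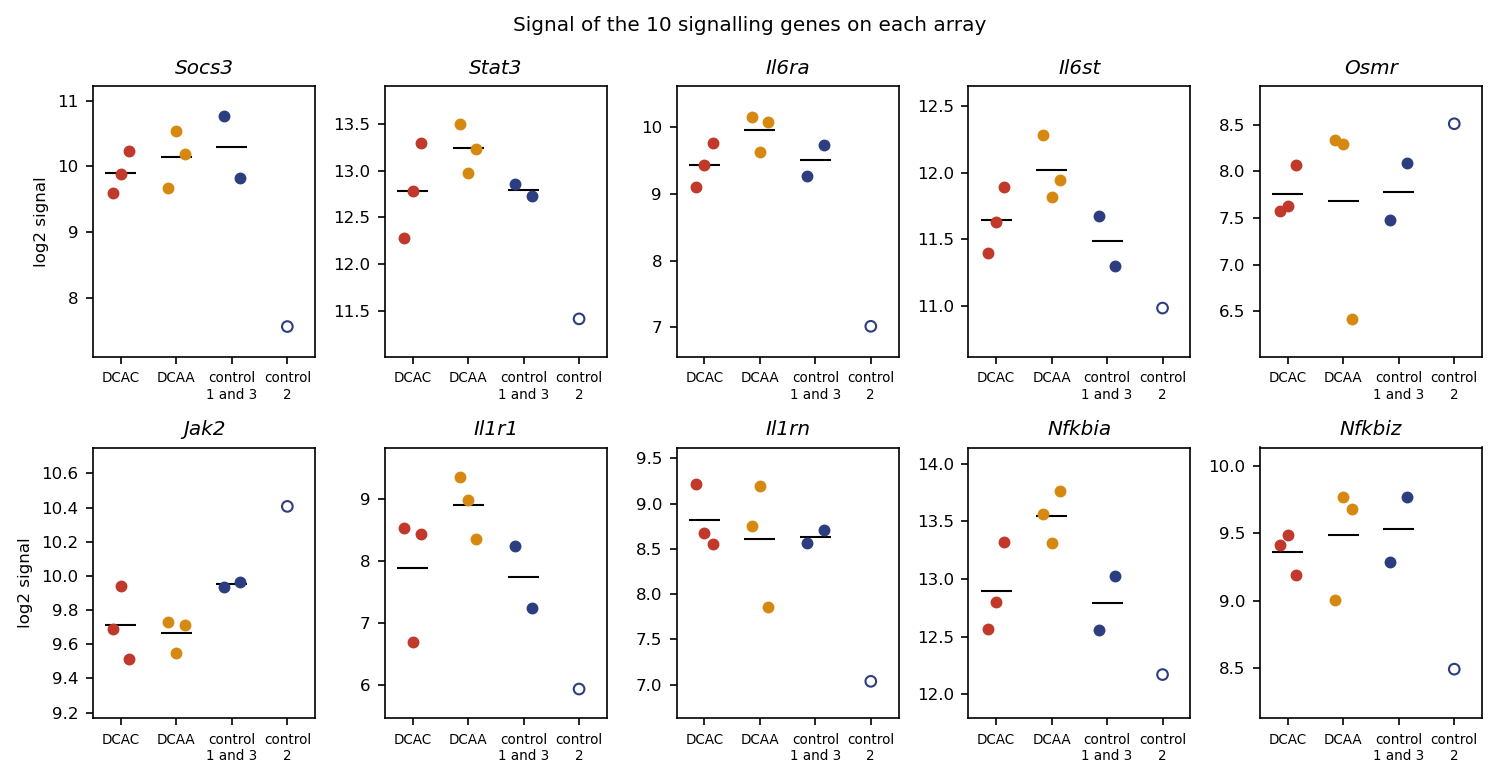
Signal of the brightest probe set of each of the 10 genes (y axis, log2 signal, each panel on its own scale) on the 3 DCAC arrays, the 3 DCAA arrays, controls 1 and 3, and control 2 (open circle); horizontal bars are group means. The DCAA points of Il6st, Stat3, Il1r1 and Nfkbia lie above both filled controls, and control 2 lies below the other 8 arrays for 8 genes and above them for Osmr and Jak2.

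Among the receptors of the IL-6 family, Il6ra (chr3:89869324-89913196), the ligand-binding subunit, had signals of 547, 691 and 866 with DCAC, 1142, 792 and 1074 with DCAA, and 618 and 849 in controls. The DCAC mice lay around the controls, and 2 of the 3 DCAA mice lay above both. The log2 difference was -0.07 (95% interval -0.62 to 0.47) for DCAC and 0.45 (interval -0.09 to 0.996, limma adjusted p = 0.485) for DCAA. The other probe set of Il6ra stood at -0.01 and -0.17.

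Il6st (chr13:112464070-112506860), the signal-transducing subunit gp130, was higher on all 3 DCAA arrays than on both controls by its brightest probe set. It read 2703, 3177 and 3803 with DCAC, 4986, 3617 and 3942 with DCAA, and 3280 and 2522 in controls. The difference was 0.15 (interval -0.27 to 0.58) for DCAC and 0.53 (interval 0.10 to 0.95, unadjusted p = 0.0196, limma adjusted p = 0.310) for DCAA. The other 3 probe sets of Il6st ran the other way with DCAA, at -0.44, -0.55 and -0.84, and those at -0.55 and -0.84 had all 3 DCAA arrays below both controls. No direction can therefore be given for Il6st as a gene.

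Osmr (chr15:6813568-6874968), the oncostatin M receptor subunit that pairs with gp130, lay above the array median on 7 of 8 arrays. It read 191, 198 and 270 with DCAC, 324, 315 and 85.5 with DCAA, and 178 and 272 in controls. DCAA 3 stood far below DCAA 1 and 2. The difference was -0.02 (interval -1.20 to 1.15) for DCAC and -0.10 (interval -1.28 to 1.08) for DCAA, and without DCAA 3 the DCAA difference was 0.53. Its other 2 probe sets did not pass the filter.

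Jak2 (chr19:29251803-29313095), a kinase that the receptors activate, was lower on all 3 DCAA arrays than on both controls. It read 825, 985 and 730 with DCAC, 850, 750 and 839 with DCAA, and 979 and 999 in controls. The difference was -0.24 (interval -0.65 to 0.18) for DCAC and -0.29 (interval -0.70 to 0.13, adjusted p = 0.569) for DCAA, neither passing.

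Stat3 (chr11:100886806-100939594), the transcription factor that carries the IL-6 signal to the nucleus, read 4990.3, 7025 and 10039.8 with DCAC, 11552, 8066 and 9617 with DCAA, and 7441 and 6782 in controls. The DCAC mice lay on both sides of the controls, and all 3 DCAA mice lay above them. The difference was -0.01 (interval -0.54 to 0.52) for DCAC and 0.44 (interval -0.09 to 0.97, adjusted p = 0.485) for DCAA. The other 3 probe sets of Stat3 stood at -0.09, -0.06 and -0.10 with DCAA.

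Socs3 (chr11:117966079-117970336), the feedback inhibitor that STAT3 induces, overlapped between the groups by all 3 of its probe sets. The brightest read 777, 946 and 1208 with DCAC, 818, 1492 and 1171 with DCAA, and 1738 and 907 in controls. Its difference was -0.39 (interval -1.06 to 0.28) for DCAC and -0.16 (interval -0.83 to 0.51) for DCAA. By its suffix that set can also bind other transcripts. The third, without that suffix, read 611, 488 and 1049 with DCAC, 1074, 694 and 581 with DCAA, and 597 and 389 in controls, a difference of 0.49 (interval -0.25 to 1.24) and 0.65 (interval -0.10 to 1.40, adjusted p = 0.460). The sign for Socs3 thus depended on the probe set. By the brightest one it also turned without control 1, to 0.08 for DCAC and 0.31 for DCAA, and it was -0.86 and -0.63 without control 3.

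Of the genes of the IL-1 pathway, Il1r1 (chr1:40222480-40316201), the signalling receptor, had the largest difference of the 10 with DCAA. It lay above the array median on 6 of 8 arrays, and below it on DCAC 2 and control 3. It read 369, 103 and 345 with DCAC, 653, 504 and 328 with DCAA, and 303 and 151 in controls. The difference was 1.15 (interval 0.00 to 2.30, unadjusted p = 0.0494, adjusted p = 0.396) for DCAA and 0.14 (interval -1.01 to 1.29) for DCAC. All 3 DCAA arrays lay above both controls, and DCAC 2 lay far below DCAC 1 and 3. The DCAA difference was 0.65 without control 3 and 1.65 without control 1.

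Il1rn (chr2:24336860-24351491), which encodes the secreted IL-1 receptor antagonist, overlapped between the groups. It read 593, 409 and 377 with DCAC, 432, 588 and 232 with DCAA, and 379 and 417 in controls. The difference was 0.18 (interval -0.60 to 0.95) for DCAC and -0.03 (interval -0.81 to 0.74) for DCAA. Its other 2 probe sets stood at -0.69 and 0.48 with DCAC, each with no overlap between the groups and in opposite directions.

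Nfkbia (chr12:55489409-55492647), the NF-kB inhibitor that NF-kB induces, had the smallest unadjusted p of the 10. It read 6055, 7135 and 10226 with DCAC, 12104, 10149 and 13877 with DCAA, and 6013 and 8347 in controls. All 3 DCAA arrays lay above both controls, and DCAC 3 lay with them. The difference was 0.75 (interval 0.27 to 1.24, unadjusted p = 0.00554, adjusted p = 0.221) for DCAA and 0.10 (interval -0.38 to 0.59) for DCAC. Another probe set of Nfkbia gave 0.46 with DCAC and 0.76 with DCAA (adjusted p = 0.240), also with all 3 DCAA arrays above both controls. The other 3 gave 0.11, -0.26 and 0.15 with DCAA, none passing. The one at 0.15 had all 3 DCAA arrays above both controls. The one at -0.26 had all 3 DCAA arrays below both controls, at 1489, 1698 and 1832 against 1858 and 2159. The probe sets of Nfkbia thus disagree in direction with DCAA, where only the one at -0.26 was negative.

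Nfkbiz (chr16:55811375-55838954), an atypical IkB protein induced by IL-1 that acts in the nucleus, overlapped between the groups. It read 681, 718 and 586 with DCAC, 514, 874 and 821 with DCAA, and 626 and 874 in controls. The difference was -0.17 (interval -0.73 to 0.40) for DCAC and -0.04 (interval -0.61 to 0.52) for DCAA, and all 3 probe sets had negative values with both compounds. One of the other probe sets, at -0.20 with DCAC, had all 3 DCAC arrays below both controls.

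Across the 10 genes, the groups did not overlap for 0 with DCAC, and for 4 higher and 1 lower with DCAA, where 17.1% of all genes lay apart higher and 15.5% lower. With DCAC 12.9% of all genes lay apart higher and 11.6% lower. Both compounds were compared with the same 2 controls. With 6 treated mice against 2 controls, 0 of the 10 passed, with an adjusted p of 0.755 to 0.982, and the test called 0.0734% of all probe sets. None had an unadjusted p under 0.05, where 4.74% of all genes were higher and 3.22% lower, and none lay apart from the controls, where 6% did so higher and 5.5% lower. The members' median was 0.13 there, and they ran from -0.27 (Socs3) to 0.65 (Il1r1).

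**Figure D2:**
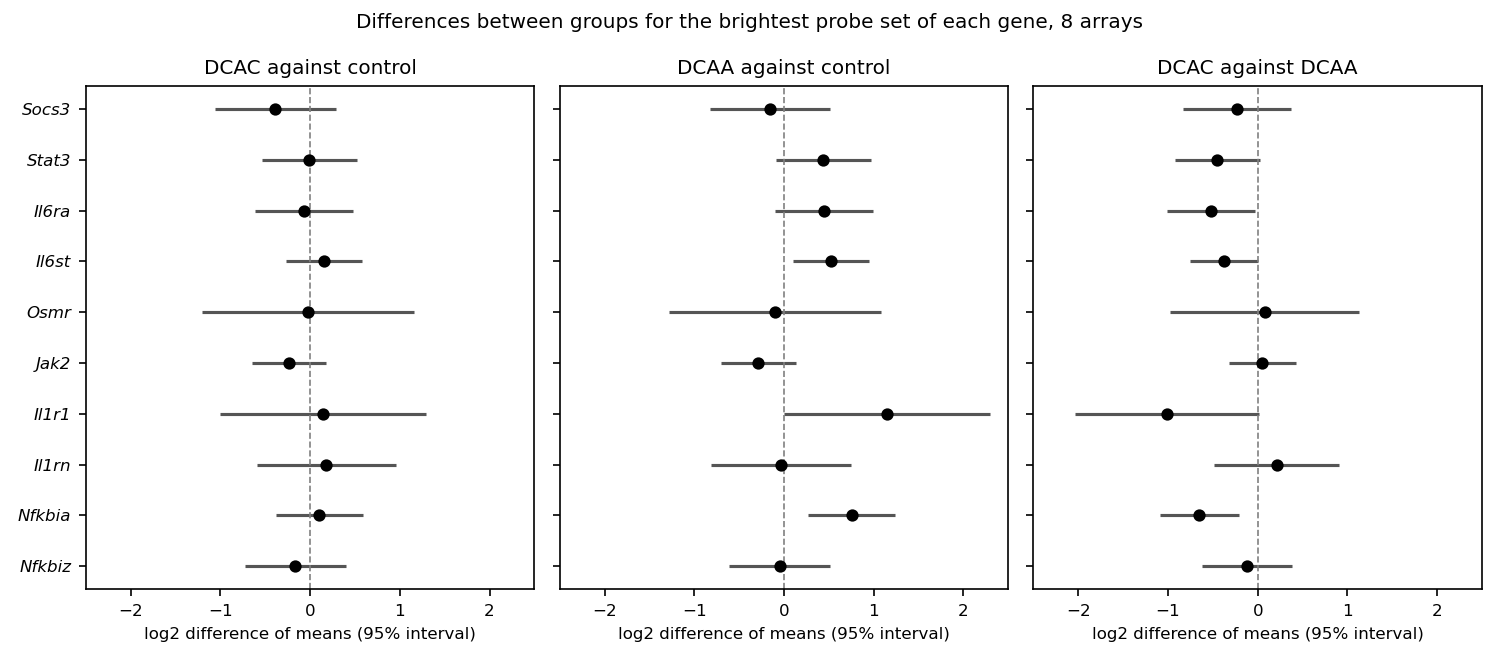
Log2 difference of group means (points) with its 95% interval (lines) from the limma fit of 8 arrays, for each gene's brightest probe set; the dashed line is no difference. With DCAC against control every interval includes 0; with DCAA against control the intervals of Il6st, Il1r1 and Nfkbia lie above 0 before adjustment; with DCAC against DCAA those of Il6ra and Nfkbia lie below 0.

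DCAC and DCAA share the dichloroacetyl group and differ in what is attached to it, chlorine in DCAC and dichloroacetate in DCAA. They were compared as 1 pair, at the same molar dose and time, and none of the 10 genes passed (limma adjusted p 0.451 to 0.971; 0.00408% of all probe sets were called). Nfkbia stood at -0.65 in DCAC relative to DCAA (interval -1.09 to -0.21, unadjusted p = 0.00697) and Il6ra at -0.52 (interval -1.01 to -0.04). Those 2 of 10, both lower, had an unadjusted p under 0.05, where 4.82% of all genes were higher and 4.19% lower. Il1r1 stood at -1.01 (interval -2.04 to 0.01), Stat3 at -0.45 (interval -0.93 to 0.03) and Il6st at -0.37 (interval -0.76 to 0.01). These values are those of the brightest probe sets. The other probe set of Il6ra stood at 0.16, and the other 3 of Il6st at 0.28, 0.41 and 0.72. The other probe sets of Nfkbia stood at -0.26, -0.0003, -0.30 and -0.04. DCAC 1 and DCAC 2 had lower 3'/5' ratios than all 3 DCAA arrays. A block for high against low ratio was also fitted, a correction that rests on DCAC 3 alone. With it Nfkbia stood at -0.22, Il6ra at -0.19, Il6st at -0.12 and Stat3 at 0.059. The part of the ratio was not tested apart from treatment. Without the block, the difference was 0.05 (interval -0.32 to 0.42) for Jak2 and -0.23 (interval -0.83 to 0.37) for Socs3. On no member did all 3 DCAC arrays lie apart from all 3 DCAA arrays, while 7.22% of all genes did so higher and 7.09% lower.

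The brightest probe sets of Nfkbia, Stat3, Il6st and Il6ra followed the 3'/5' ratio of the arrays. Over the 8 arrays, Pearson's r between log2 signal and the log2 ratio was 0.81 for Nfkbia, 0.79 for Stat3, 0.71 for Il6st and 0.66 for Il6ra. The other probe sets of Il6st had r of -0.67, -0.95 and -0.85, the other of Il6ra had -0.80, and Jak2 had -0.72. Of the 27 member probe sets tested, 7 had r above 0.6 and 6 had r below -0.6, against 12.1% and 12.7% of all probe sets. These values are a description over 8 arrays that share treatment groups, and the part of the ratio in the DCAA differences was not tested apart from treatment. With the ratio class as a block, a correction that rests on DCAC 3 alone, the DCAA difference was 0.12 for Nfkbia, 0.15 for Il6st, 0.33 for Il1r1, -0.32 for Stat3 and -0.04 for Il6ra.

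**Figure D3:**
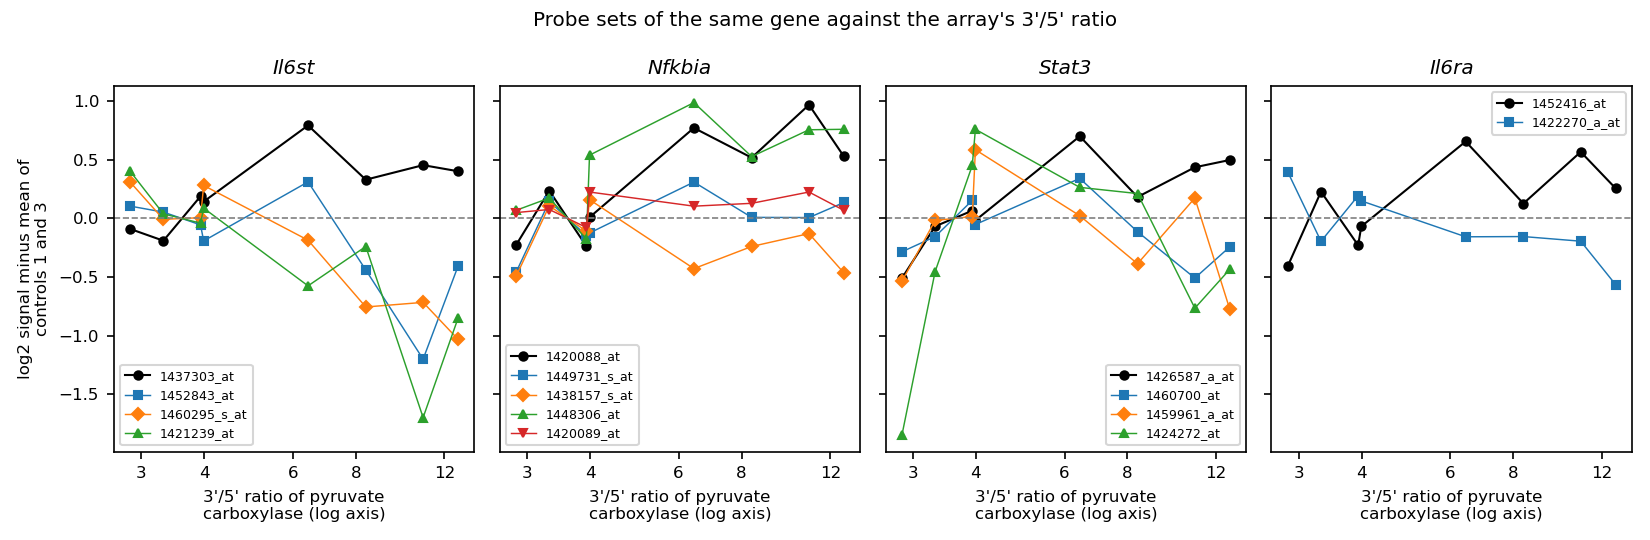
Log2 signal of each tested probe set minus its mean in controls 1 and 3 (y axis) against the 3'/5' ratio of pyruvate carboxylase on the array (x axis, log scale), for Il6st, Nfkbia, Stat3 and Il6ra; each point is 1 of 8 arrays and black marks the brightest probe set. The black line lies above 0 on the 4 arrays with a ratio of 6.43 or more in all 4 panels, while the other probe sets of Il6st and Il6ra lie mostly below 0 there.

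Within the set, by brightest probe sets, the signals of Il6ra and Nfkbia were most alike over the 8 arrays (Pearson's r = 0.94). Stat3 and Il6st (0.90) and Stat3 and Il6ra (0.87) followed. These are the genes whose brightest probe sets followed the 3'/5' ratio, and the part of the ratio in their likeness was not tested. Jak2 and Il1r1 were most opposed (-0.69). Among 11621 other genes with 1 symbol, those most like Nfkbia were Tbc1d8 (Pearson's r = 0.98, Spearman's rho = 0.98), Ccnl1 (0.97 and 0.98), Rp2 (0.96 and 0.98), Aldh18a1 (0.96 and 0.93) and Tmem81 (0.96 and 0.95). Without the 2 arrays farthest from the median of Nfkbia, r for these genes was 0.93 to 0.99. Those most like Socs3 were Prr12 (0.94 and 0.86), Cdk2ap1 (0.93 and 0.95), Thoc1 (0.91 and 0.95), Dhx34 (0.91 and 0.90) and Rexo4 (0.91 and 0.88), at 0.77 to 0.89 without the 2 farthest arrays. These r are the highest of 11621.

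None of the ligand genes of either pathway that were tested passed. Il6 read 68.4, 8.80 and 26.6 with DCAC, 9.10, 84.2 and 174 with DCAA, and 2.30 and 63.1 in controls, below the array median on all 8 arrays, and so was Osm, oncostatin M, at 74.2 to 162, so neither was tested. Il1b, IL-1 beta, read 339, 242 and 202 with DCAC, 309, 226 and 291 with DCAA, and 290 and 496 in controls. Its difference was -0.57 (limma adjusted p = 0.968) and -0.47 (adjusted p = 0.597). Tnf stood at 0.61 and -0.29, with 5 of 8 arrays below the array median. Of 9 ligands of the IL-6 family listed, 3 were tested and 0 passed. Clcf1, a ligand of the ciliary neurotrophic factor receptor, stood at -1.16 and -1.59, Lif, leukemia inhibitory factor, at -0.73 and 0.33, and Ctf1, cardiotrophin 1, at -0.04 and -0.06. Of 6 IL-1 family and TNF ligands listed, 4 were tested and 0 passed. Il1a, IL-1 alpha, and Il33 did not pass the filter and were not tested. Il18, an IL-1 family cytokine, stood at 0.24 and 0.49 and Il1f6 at -0.36 and -0.48, also not passing.

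Other receptors, kinases and inhibitors also had no call, with DCAC first and DCAA second in each pair of log2 differences. Among 6 further receptor, kinase and STAT genes of the IL-6 family tested, 0 passed. Lifr, the leukemia inhibitory factor receptor, stood at 0.29 and -0.09, Cntfr at -0.22 and -0.20 and Stat5a at -0.13 and -0.30. Of 12 JAK-STAT inhibitor genes 0 passed. Ptpn2, a phosphatase that removes phosphate from JAK and STAT proteins, stood at 0.51 and 0.71 (adjusted p = 0.967 and 0.268), Socs7 at -0.33 and -0.33, and the phosphatase Ptpn1 at -0.20 and -0.34. Of 6 IL-1 and TNF receptor genes 0 passed, with Sigirr, an inhibitory IL-1 receptor family member, at 0.20 and 0.27, the toll-like receptor Tlr2 at 0.38 and 0.03, and the IL-18 receptor subunit Il18r1 at 0.33 and 0.47.

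Downstream of the receptors, 0 of 12 IL-1 relay genes and 0 of 7 NF-kB subunit and inhibitor genes passed. Tab3, an adaptor of the kinase TAK1, stood at 0.68 and 0.42, Ikbkg, the regulatory subunit of the IkB kinase, at -0.25 and -0.12, and Peli1, a ubiquitin ligase for IRAK proteins, at 0.07 and 0.40. The inhibitors Nfkbie and Nfkbib stood at -0.28 and -0.37 and at -0.08 and -0.39, and Tnfaip3, an NF-kB target that limits NF-kB, at 0.23 and 0.40. Of 12 STAT3 and C/EBP target and factor genes 0 passed. Pim3, a kinase gene that STAT3 induces, read 1274, 1481 and 3417 with DCAC, 2954, 2151 and 2046 with DCAA, and 1216 and 992 in controls. All 6 treated arrays lay above both controls for Pim3, as they did for 6% of all genes. Pim3 stood at 0.76 and 1.10 (adjusted p = 0.967 and 0.234). Gadd45g, a growth arrest gene, stood at 0.27 and 1.46 and Il4ra at -0.15 and -0.49. Pearson's r with the log2 3'/5' ratio was 0.85 for Pim3, 0.85 for Gadd45g and -0.55 for Il4ra. The part of the ratio in these values was not tested. Over all 8 signalling lists, 62 of 85 genes were tested and 0 passed with either compound, with medians of 0.02 and -0.05.

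Acute phase genes, the targets of these pathways, passed the test in part. Of 12 acute phase genes of the type that IL-1 and IL-6 induce together, 4 rose with DCAC and 5 with DCAA, and 0 fell; the medians were 1.08 and 0.97. Saa2, Saa1, Lcn2 and Orm2 rose with both, by 2.95 to 4.59 on the log2 scale, and Apcs, serum amyloid P, rose with DCAA by 1.01 and stood at 0.84 with DCAC. DCAA 1 stood apart in these genes: Saa2 read 28330, 42795 and 42782 with DCAC, 7524, 44147 and 44319 with DCAA, and 1557 and 1541 in controls. Without DCAA 1 the DCAA difference of Saa2 was 4.84 against 3.98 with it, and that of Saa1 was 4.28 against 3.70. All 6 treated arrays lay above both controls for Saa2. Orm3 stood at 1.31 and 0.93, Hp, haptoglobin, at 0.73 and 0.90, and Orm1 at 0.85 and 0.76, none passing. Of 11 acute phase genes of the type that IL-6 induces alone, 0 passed with DCAC and 1 rose with DCAA, Lrg1 at 1.18 (adjusted p = 0.0472), which stood at 1.09 with DCAC. The medians were 0.31 and 0.43. With each compound 9 of the 11 were higher and 2 lower, the lowest at -0.97 with DCAC and -1.25 with DCAA. Serpina3n stood at 0.82 and 0.83, Itih4 at 0.60 and 0.76 and Itih3 at 0.42 and 0.45. The sorting into types follows rat and human hepatocytes. Over both types, the 4 calls with DCAC and 6 with DCAA became 1 and 0 with the 3'/5' ratio block, 0 and 0 without the intensity trend, 0 and 0 without the filter, 0 and 0 without control 1, and 1 and 0 without control 3. Without DCAC 3 the DCAC calls numbered 1. The DCAA calls numbered 10 without DCAA 1, 3 without DCAA 2, 1 without DCAA 3 and 3 with only the groups compared. The log2 differences of Saa1, Saa2, Lcn2 and Orm2 stayed at 2.47 or more under every alternative run with either compound, so these alternatives changed the call and not the direction. They were applied to the acute phase genes after seeing the data.

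**Figure D4:**
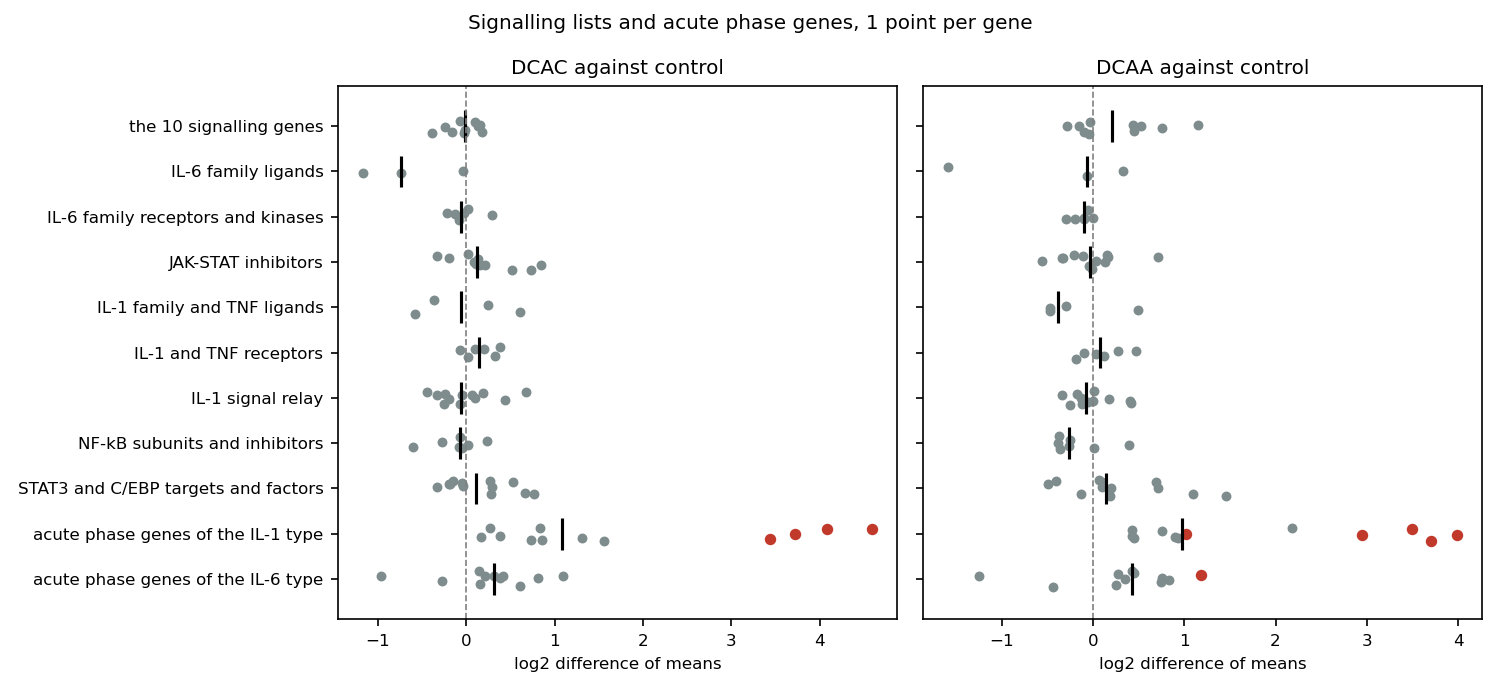
Log2 difference from control (x axis) of each gene tested, by its brightest probe set, for the 10 signalling genes and 10 further lists (rows), with DCAC on the left and DCAA on the right; red points passed at an adjusted p under 0.05 and black bars are list medians. Red points lie in the acute phase rows alone, 4 with DCAC and 6 with DCAA.

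Markers of other cells moved between arrays beside these results. All 13 Kupffer cell and macrophage markers were highest on control 3, and their summed signal was 11802 to 19173 with DCAC, 15991 to 17828 with DCAA, and 11545 and 39342 in controls 1 and 3. All 13 had a lower mean log2 signal with DCAC than in controls 1 and 3. With DCAA 10 were lower and 3 higher, and 0 passed the test with either compound. Among the members, Il6ra, Osmr, Jak2, Il1rn, Nfkbia and Nfkbiz read higher on control 3 than on control 1, and Socs3, Stat3, Il6st and Il1r1 read lower. The 10 neutrophil markers measured summed to 2828 to 3109 with DCAC, 2030 to 4727 with DCAA, and 1500 and 1792 in controls. Of the 8 that passed the filter 1 passed the test over all treated mice. That was Prtn3, proteinase 3, which read 711, 778 and 761 with DCAC, 590, 761 and 784 with DCAA, and 222 and 45.0 in controls (log2 difference 2.73, limma adjusted p = 0.0150). Its value on control 3 lay under the floor of that array, 54.3, and was raised to it. At an unadjusted p under 0.05, 3 of the 8 were higher with DCAC and 4 with DCAA, and 0 were lower. The shares of all genes higher were 2.85% and 6.96%. The 9 T and NK cell markers measured summed to 1418 to 1626 with DCAC, 1287 to 1755 with DCAA, and 2040 and 2964 in controls. None of the 5 tested passed, and 3 with DCAC and 2 with DCAA were lower at an unadjusted p under 0.05. The shares of all genes lower were 2.6% and 6.2%. The part of these cells in the values of Il1rn, Il1r1 and Nfkbiz was not tested.

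On control 2, which carried the kidney markers, the signals of 8 of the 10 genes were below those of all other arrays and those of 2 were above. The share of all genes lying apart on control 2 was not counted, so these counts cannot be called particular to the 10 genes. Socs3 read 190 there and 777 to 1738 elsewhere, and Il6ra read 129 against 547 to 1142. With all 9 arrays the members' medians were 0.38 for DCAC and 0.72 for DCAA, 0 of the 10 passed, and limma called 0% of all probe sets in every comparison, so none of the acute phase genes passed there either. In that fit Socs3 stood at 0.52 and 0.75 and Il6ra at 0.76 and 1.28.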

How the data were processed

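Total RNA of 1 liver per mouse was reverse transcribed, transcribed in vitro and hybridised to an Affymetrix mouse array, per the labels' protocols. The deposited values are linear signal intensity from GCOS, per the submitters' processing notes; its version, detection calls and any genome build are not given in the sources used here. From the values, each array was scaled to a mean of 500 after trimming 2% at each end. No 2 of the 9 arrays were identical.

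Leaving out 64 control probe sets, each array's signals were floored at its 25th percentile and log2 was taken. The 24531 probe sets exceeding their array's median on 3 or more of 8 arrays were kept. Gene symbols are those of the array's annotation table, and a gene given by 1 value is read from the brightest probe set kept. Tests were run in limma 3.58.1 under R 4.3.3 (lmFit, eBayes with an intensity trend), all groups in 1 model, and treated against control in a model of 2 groups. Precision is limited by the number of mice. Figures and summaries used Python 3.11.15 and pandas 2.3.3. The fit was tested on simulated data.

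The 10 genes, the further lists, the tests and the omission of control 2 were chosen with earlier results of these data known. From each list the genes called are named (up to 5), then up to 3 by unadjusted p over all treated mice, with Il6, Osm, Il1b and Tnf whatever their values. Il1a and Il33 are named as ligands that were not tested. Genes most like Socs3 and Nfkbia were ranked by Pearson's r over 8 arrays. Whether the labels' replicate numbers pair the mice was not settled. Deviations from group means correlated at -0.041 to 0.027 between same-numbered arrays and at -0.066 to 0.074 between others. Such deviations are tied within a group, and those of the 2 controls mirror each other, so these values cannot decide it. Alternatives were all 9 arrays, quantile normalization, an offset of 32 in place of the floor, no filter, a filter on every array, only the groups compared, eBayes without trend, a block for high against low 3'/5' ratio, a replicate block, and leaving out each array.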

Additional observations from a re-analysis of the deposited data

Results flagged for a closer look

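On control 2, an array outside the comparisons, Jak2 read 1358 and Osmr 365, each above the other 8 arrays (730 to 999 and 85.5 to 324). Among the 6 treated arrays, Il1r1 on DCAC 2 read 103, far from the nearest of the others at 328. Chance alone flags about 1 in 20 groups in this way, and 10 were looked at.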

How the results depend on the processing

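None of the 10 genes was called in any comparison by limma under any alternative run; their smallest adjusted p was 0.103, and at an unadjusted p under 0.05 the main setting counted 0, 3, 2 and 0 of them for DCAC, DCAA, DCAC against DCAA and all treated mice. Of 342 single-gene values outside the omission of arrays, 29 turned sign. With all 9 arrays these were for DCAC against control Socs3 0.52, Stat3 0.45, Il6ra 0.76 and Nfkbiz 0.18; for DCAA against control Socs3 0.75, Il1rn 0.50 and Nfkbiz 0.30; for treated against control Socs3 0.64 and Nfkbiz 0.24. With the 3'/5' ratio block they were for DCAC against control Il1r1 -0.14 and Nfkbia -0.11; for DCAA against control Stat3 -0.32, Il6ra -0.043, Jak2 0.019, Il1rn 0.35 and Nfkbiz 0.21; for DCAC against DCAA Socs3 0.10, Stat3 0.059, Jak2 -0.15 and Il1rn -0.045; for treated against control Stat3 -0.26, Il6ra -0.24, Il1r1 -0.14 and Nfkbia -0.11. With quantile normalization they were for DCAC against control Osmr 0.038; for DCAA against control Nfkbiz 0.0074. The replicate numbers were treated as names without pairing; with a replicate block the signs that turned were for DCAC against control Stat3 0.057 and Il6ra 0.0077; for treated against control Il1rn -0.040. The cause of these turns was not tested.

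Probe sets called numbered 8, 20, 1 and 18 in that order of comparisons. They numbered 0, 0, 0 and 0 with all 9 arrays, 1, 4, 0 and 18 without the filter, 8, 13 and 2 with only the groups compared (the first 3 comparisons), 0, 0, 0 and 2 without the trend, 2, 0, 3 and 5 with the ratio block and 7, 17, 1 and 7 with the replicate block. Leaving out 1 array at a time gave 2 to 14 for DCAC against control, 3 to 87 for DCAA against control, 0 to 2 for DCAC against DCAA and 4 to 27 for treated against control. The extremes came without DCAC 3 (lowest) and DCAA 1 (highest) for DCAC against control; without DCAA 3 (lowest) and DCAA 1 (highest) for DCAA against control; without DCAC 1, DCAC 2, DCAC 3 and DCAA 2 (lowest) and control 1 and control 3 (highest) for DCAC against DCAA; without control 3 (lowest) and DCAC 1 (highest) for treated against control. It turned 37 of 320 single-gene values, with ranges for DCAC against control Socs3 -0.86 to 0.083, Stat3 -0.26 to 0.24, Il6ra -0.30 to 0.16, Il6st -0.037 to 0.34, Osmr -0.33 to 0.28, Il1r1 -0.36 to 0.74, Il1rn -0.019 to 0.31, Nfkbia -0.13 to 0.34 and Nfkbiz -0.41 to 0.075; for DCAA against control Socs3 -0.63 to 0.31, Osmr -0.43 to 0.53, Il1rn -0.33 to 0.34 and Nfkbiz -0.29 to 0.20; for DCAC against DCAA Osmr -0.56 to 0.40, Jak2 -0.065 to 0.15, Il1rn -0.16 to 0.51 and Nfkbiz -0.36 to 0.021; for treated against control Socs3 -0.74 to 0.20, Il6ra -0.039 to 0.42, Osmr -0.36 to 0.24, Il1rn -0.027 to 0.24 and Nfkbiz -0.35 to 0.14. A filter on every array left out Osmr and Il1r1. With 2 controls, each control moves every comparison with control.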
